A study of Mus musculus with 6 samples.

Results

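The NRF2 and glutathione genes described here are 42 named genes: the transcription factor NRF2 (gene Nfe2l2), its repressor Keap1 and partner Mafg, and enzymes, transporters and carrier proteins of antioxidant defence. Each gene was represented by the probe set with the highest mean over 6 arrays, among probe sets annotated to exactly 1 symbol. By this rule 37 of the 42 were measured, among 13222 genes tested in the series, and all 37 passed the filter on low signal. Prdx1 and Ftl1 were read by probe sets annotated to several symbols, and Prdx5, Prdx6 and G6pdx were matched to no probe set, so these 5 were not analysed here.

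The samples were tumour epithelial cells from chemically induced benign skin papillomas of mice, profiled on whole-genome Affymetrix mouse arrays. In the 3 Sox2cKO samples the mice were K14CREER:SOX2fl/fl, in which tamoxifen switches on a Cre driven by the keratin 14 promoter, so that deletion of Sox2 is aimed at keratin 14-expressing epithelium. The 3 CTRL samples came from control mice whose genotype is not given further, and both groups had received tamoxifen for 1 week. Epithelial cells positive for Epcam and for alpha6 integrin were isolated by flow sorting after removal of cells bearing CD45, CD31 or CD140a, and the sources used here do not give the carcinogen, the age of the mice or whether tumours were pooled. Values are log2 intensities with no further unit. Nothing in the labels says that each array is a separate animal beyond the series' mention of 3 biological experiments. The p-values set a difference of group means against the spread between these samples within a group, which need not be the spread between animals.

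NRF2 is a transcription factor that KEAP1 binds and sends for degradation; when oxidants or electrophiles modify KEAP1, NRF2 accumulates, pairs with a small MAF protein such as MAFG and binds the antioxidant response element in the promoters of its target genes. The targets make glutathione, use it to reduce peroxides and to conjugate electrophiles, regenerate thioredoxin, and supply NADPH through the pentose phosphate pathway. In skin this programme is known for protecting keratinocytes from reactive oxygen and from chemical carcinogens. Because NRF2 is regulated mainly at the protein level, the amount of its mRNA need not follow its activity, and target genes are commonly read instead.

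Promoters are shown for the members whose values set the results below, Slc7a11, Srxn1 and Gsta3, which varied widely between control arrays, with Txnrd1 and Gclm as NRF2 targets that varied in Sox2cKO, and for Nfe2l2 itself. Each line gives the 250 bases before an annotated transcription start, 5′ to 3′ on the strand of the gene, from RefSeq on build GRCm38.p6. Capitals mark matches on either strand to the core of the antioxidant response element, TGACNNNGC, and in Slc7a11 to TGATGNAA, the core of the element bound by the amino acid response factor ATF4.
Nfe2l2 (chr2:75704664-75704913, minus strand): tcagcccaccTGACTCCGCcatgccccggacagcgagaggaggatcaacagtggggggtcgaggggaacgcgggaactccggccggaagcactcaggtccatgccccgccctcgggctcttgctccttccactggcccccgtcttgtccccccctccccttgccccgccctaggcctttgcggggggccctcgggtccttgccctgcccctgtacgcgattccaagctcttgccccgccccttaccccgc
Slc7a11 (chr3:50443614-50443863, minus strand): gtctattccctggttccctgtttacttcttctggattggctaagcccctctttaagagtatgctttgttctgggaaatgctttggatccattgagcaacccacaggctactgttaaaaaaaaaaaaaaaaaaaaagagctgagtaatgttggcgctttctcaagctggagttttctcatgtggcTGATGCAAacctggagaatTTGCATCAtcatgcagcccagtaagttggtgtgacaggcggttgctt
Gclm (chr3:122245307-122245556, plus strand): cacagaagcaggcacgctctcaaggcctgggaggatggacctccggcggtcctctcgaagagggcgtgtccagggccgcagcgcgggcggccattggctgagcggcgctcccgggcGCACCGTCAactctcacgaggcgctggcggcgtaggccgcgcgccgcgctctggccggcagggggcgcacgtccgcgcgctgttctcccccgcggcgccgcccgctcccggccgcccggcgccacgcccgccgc
Gsta3 (chr1:21240335-21240584, plus strand): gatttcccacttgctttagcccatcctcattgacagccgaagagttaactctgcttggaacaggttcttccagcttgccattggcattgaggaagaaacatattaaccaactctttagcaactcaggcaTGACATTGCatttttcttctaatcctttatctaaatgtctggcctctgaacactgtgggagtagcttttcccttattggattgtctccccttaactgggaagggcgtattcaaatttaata
Txnrd1 (chr10:82858956-82859205, plus strand, the second of 3 annotated starts by position): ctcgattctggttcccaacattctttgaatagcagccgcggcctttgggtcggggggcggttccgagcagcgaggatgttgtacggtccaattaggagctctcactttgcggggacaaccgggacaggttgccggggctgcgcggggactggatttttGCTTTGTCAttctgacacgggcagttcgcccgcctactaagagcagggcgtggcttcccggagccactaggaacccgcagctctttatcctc
Srxn1 (chr2:152105274-152105523, plus strand): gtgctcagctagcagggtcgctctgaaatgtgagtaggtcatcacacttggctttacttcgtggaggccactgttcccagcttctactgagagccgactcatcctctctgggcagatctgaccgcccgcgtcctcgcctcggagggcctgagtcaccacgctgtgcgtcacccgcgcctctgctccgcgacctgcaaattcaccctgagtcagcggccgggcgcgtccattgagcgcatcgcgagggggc

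RefSeq starts were found for 36 of the 42 genes, 44 starts in all. Abcc1, Gclc, Gsr, Gsta4, Hmox1 and Prdx6 had no entry. The antioxidant response core was found in 9 of the 44 windows (20.5%), and in 10.2% of the 32851 windows of the same length over all genes. The 9 genes were Nfe2l2, Mafg, Gclm, Gsta3, Gstm5, Txnrd1, Prdx1, G6pdx and Sod1. The ATF4 core was found in 1 of the 44 windows (2.27%), that of Slc7a11, and in 3.45% of all windows. Slc7a11 held 2 matches to it, on opposite strands, at 66 to 59 and 47 to 40 bases before the start, and no match to either motif overlapped a match to the other. A match to letters is a description of the window, and the window of Srxn1 held no match to either set of letters. Only these letters were searched, so variants of the elements were not counted. The Srxn1 window holds TGAGTCAGC, which differs from the searched antioxidant response core at 1 base.

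The arrays differed in more than Sox2. Sox2 itself read 4.07, 4.63 and 3.23 in Sox2cKO, against 7.19, 8.31 and 8.18 in CTRL, so the groups did not overlap (log2 difference -3.92, limma adjusted p = 0.316). Xist, expressed from the inactive X chromosome, read 6.08 to 7.54 in Sox2cKO and 7.30, 12.03 and 11.85 in CTRL replicates 1, 2 and 3, and the Y-linked Eif2s3y read 9.52 to 9.54 in Sox2cKO and 9.67, 3.72 and 3.45 in CTRL. Thus CTRL replicates 2 and 3 carried a female pattern and the other 4 arrays a male pattern. Basal keratinocyte markers were high in every array, and of 6 tested 3 had higher and 3 lower means in Sox2cKO. Itga6 read 12.07 to 12.45 in Sox2cKO and 12.12 to 12.25 in CTRL. Epcam, the other marker selected in the sort, read 10.57 to 11.24 in Sox2cKO and 11.07 to 11.43 in CTRL. Its log2 difference was -0.46, and the groups overlapped. Ptprc, which encodes CD45, read 4.58 to 5.51 in Sox2cKO and 4.69 to 5.15 in CTRL. All 7 fibroblast markers listed had higher means in Sox2cKO (median log2 difference 1.30). Their summed level, as log2, was 11.86 to 13.84 in Sox2cKO and 10.63 to 11.94 in CTRL, and for the leukocyte list it was 8.64 to 8.85 in Sox2cKO and 8.51 to 8.60 in CTRL. In such bulk samples fewer cells of a type and less RNA per cell cannot be told apart.

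None of the 37 measured genes passed the test of Sox2cKO against CTRL, limma with Benjamini-Hochberg adjustment over the 13222 genes. Sox2 itself, at -3.92, did not pass either, and its adjusted p of 0.316 in limma was the smallest of all genes. Not passing therefore does not show that a gene was unchanged. In the limma test 0 of 37 had an adjusted p under 0.05, and 0% of all genes did. At an unadjusted p under 0.05 there was 1 of 37, Osgin1, against 2.68% of all genes. The groups did not overlap in 1 of 37, Tkt, against 5.85% of all genes, higher in Sox2cKO, where the share over all genes was 2.73%. The other direction held 0 of 37, against 3.12%. Means were higher in Sox2cKO for 22 of 37 genes and lower for 15, and 50.6% of all genes had the higher mean in Sox2cKO. The median log2 difference of the 37 was 0.02, and that of all genes was near 0; the median size regardless of sign was 0.10 for the 37 and 0.10 for all genes. Differences ran between -0.32 (Txnrd1) and 0.75 (Hmox1), with standard errors of 0.11 to 0.71.

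**Figure D1:**
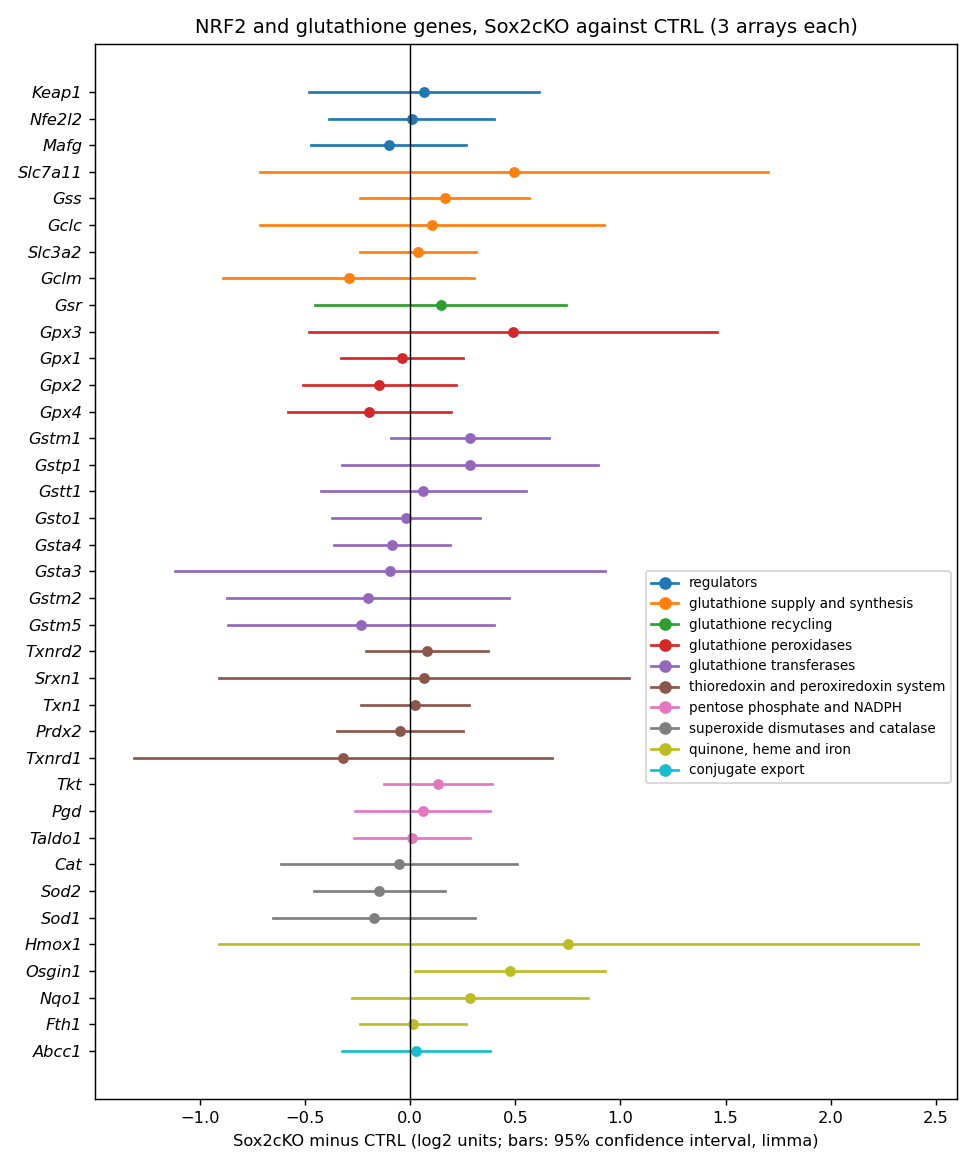
Sox2cKO minus CTRL in log2 units for the 37 measured genes, grouped by role; points are differences of means of 3 arrays each and bars are 95% confidence intervals from limma. The interval of Osgin1 (0.02 to 0.93) lies above 0, and those of the other 36 genes include 0.

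Differences of the 3 regulators were small, and none passed the test. Nfe2l2 read 11.06, 11.52 and 11.35 in Sox2cKO, against 11.08, 11.47 and 11.36 in CTRL, a log2 difference of 0.01 ± 0.17 (standard error here and below; 95% interval -0.39 to 0.40). Arrays of the same number differed by -0.02, 0.05 and -0.01, and replicate 1 was the lowest array of each group. A second probe set of Nfe2l2 differed by -0.49. Keap1, the NRF2 repressor, read 8.77, 9.35 and 9.18 in Sox2cKO and 8.82, 9.48 and 8.80 in CTRL (0.06 ± 0.23). Mafg, a small MAF partner of NRF2, read 9.37, 9.58 and 9.17 in Sox2cKO and 9.63, 9.52 and 9.28 in CTRL (-0.10 ± 0.16). The groups overlapped for all 3 regulators.

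Glutathione is built from cystine that the exchanger of Slc7a11 and Slc3a2 imports, through the ligase whose catalytic and modifier subunits are Gclc and Gclm, and then by glutathione synthetase, Gss. Slc7a11 read 7.65, 7.00 and 8.08 in Sox2cKO, against 8.19, 6.11 and 6.95 in CTRL, so the highest and the lowest of the 6 values were both controls. Its log2 difference was 0.49 ± 0.52, and 0.05 in its other probe set. Slc3a2, the heavy chain of the exchanger, read 10.65 to 10.89 in Sox2cKO and 10.75 to 10.76 in CTRL, the narrowest control range of the 37 genes. Gclc read 10.80, 9.71 and 10.04 in Sox2cKO and 10.67, 9.62 and 9.94 in CTRL (0.10 ± 0.35). Its groups overlapped, while the 3 differences between arrays of the same number were 0.13, 0.09 and 0.10. Its other tested probe set read 10.06, 9.09 and 9.38 in Sox2cKO and 10.05, 9.22 and 9.40 in CTRL, a difference of -0.05, so the direction was not shared. Gclm read 10.99, 11.42 and 12.01 in Sox2cKO, against 11.61, 11.95 and 11.73 in CTRL (-0.29 ± 0.25). In Gclm replicate 1 was the lowest array of each group, whereas in Gclc it was the highest. Gss differed by 0.17 ± 0.17, and Gsr, which regenerates reduced glutathione, by 0.14 ± 0.25.

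Of the glutathione peroxidases, which reduce hydrogen peroxide and lipid peroxides, 3 of 4 had lower means in Sox2cKO and none passed the test. Gpx4, the selenoenzyme that reduces membrane lipid peroxides, read 10.70, 10.86 and 10.35 in Sox2cKO and 10.86, 10.96 and 10.67 in CTRL (-0.19 ± 0.16). In each same-numbered pair the Sox2cKO array was the lower, but the groups overlapped. Gpx3, the secreted form, read 7.00, 7.18 and 8.61 in Sox2cKO, against 7.45, 6.98 and 6.90 in CTRL (0.49 ± 0.41). The high mean came from Sox2cKO replicate 3, which also had the highest summed fibroblast signal, 13.84, where the other 5 arrays had 10.63 to 12.69; its part in the result was not tested. Without that array the difference of Gpx3 was -0.02. Gpx1 and Gpx2 differed by -0.04 and -0.15.

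Glutathione transferases, which join glutathione to electrophiles, had 3 higher and 5 lower means among 8 genes, with a median of -0.05. Gstm1 read 8.87, 9.24 and 8.93 in Sox2cKO and 8.93, 8.73 and 8.53 in CTRL (0.28 ± 0.16), where CTRL replicate 1 reached into the Sox2cKO values. Its neighbours in the mu class, Gstm2 and Gstm5, differed by -0.20 ± 0.29 and -0.23 ± 0.27, and close sequence among mu-class genes means that their probe sets may share signal. Gstp1, the pi-class transferase, read 12.33, 12.34 and 11.97 in Sox2cKO and 12.52, 11.66 and 11.61 in CTRL (0.28 ± 0.26). CTRL replicate 1 was above all Sox2cKO values and the other controls were below them. Gsta3, of the alpha class, read 5.33, 5.58 and 6.87 in Sox2cKO and 6.46, 5.42 and 6.19 in CTRL (-0.10 ± 0.44). Gsta4, Gsto1 and Gstt1 differed by -0.09, -0.02 and 0.06. Gstt1 read 4.81 to 5.24 in Sox2cKO and 4.69 to 5.38 in CTRL, near the level below which probe sets were filtered out (4.90 to 4.94).

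In the thioredoxin system, Txnrd1 encodes the cytosolic selenoenzyme that reduces thioredoxin. It read 10.90, 9.21 and 10.61 in Sox2cKO, against 10.92, 10.38 and 10.38 in CTRL (-0.32 ± 0.42). The low mean came from Sox2cKO replicate 2, and without it the difference was 0.20. Its 2 other tested probe sets differed by 0.11 and -0.08. Srxn1, the sulfiredoxin that repairs over-oxidised peroxiredoxins, read 9.73, 8.98 and 8.73 in Sox2cKO and 9.84, 8.27 and 9.13 in CTRL (0.07 ± 0.42). Thioredoxin itself, Txn1, differed by 0.02 ± 0.11, the mitochondrial reductase Txnrd2 by 0.08 ± 0.12, and the peroxiredoxin Prdx2 by -0.05 ± 0.13. Other tested probe sets differed by -0.06 for Txn1, by -0.05, 0.12 and -0.07 for Txnrd2, and by -0.58 for Prdx2.

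The 3 pentose phosphate genes had means a little higher in Sox2cKO, by 0.01 to 0.13, and none passed the test. Tkt, the transketolase, read 12.87, 12.82 and 12.95 in Sox2cKO, against 12.80, 12.71 and 12.74 in CTRL (0.13 ± 0.11, adjusted p = 0.999 in limma). Every Sox2cKO array was above every control in this probe set. In both other tested probe sets of Tkt, which differed by 0.08 and 0.17, the groups overlapped. Pgd, which makes NADPH, and Taldo1 differed by 0.06 ± 0.14 and 0.01 ± 0.12. Superoxide dismutases and catalase all had lower means in Sox2cKO, 3 of 3, with no test passed: Sod1, cytosolic, by -0.17 ± 0.20, Sod2, mitochondrial, by -0.15 ± 0.13, and Cat by -0.05 ± 0.24. Sod2 read 10.72, 11.01 and 10.66 in Sox2cKO and 10.95, 10.99 and 10.89 in CTRL. Its other tested probe sets disagreed, at -0.18, 0.23 and 0.43. Cat read 10.00, 10.13 and 10.17 in Sox2cKO and 10.28, 9.61 and 10.58 in CTRL, with every Sox2cKO value inside the control range.

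The 4 genes for quinones, heme, iron and the stress response had higher means in Sox2cKO, with a median of 0.38, and none passed the test. Markers of suprabasal keratinocytes, the differentiating cells above the basal layer, also had higher means in Sox2cKO, 6 of 6 tested with a median of 0.28, of which 0 passed after adjustment. The groups were apart in 1 of the 6, loricrin (Lor), against 5.85% of all genes. Lor read 6.51, 6.46 and 6.47 in Sox2cKO and 6.28, 6.18 and 6.01 in CTRL. In the other tested markers the groups overlapped, and Krt1 and Krt10 had their lowest values in Sox2cKO replicate 3. The part of these cells in the values of the 4 genes was not tested. Osgin1, an oxidative stress-induced growth inhibitor and NRF2 target, read 7.04, 7.32 and 6.69 in Sox2cKO, against 6.71, 6.60 and 6.31 in CTRL. It was higher in Sox2cKO in each of the 3 same-numbered pairs, by 0.33, 0.71 and 0.38, while Sox2cKO replicate 3 fell just below CTRL replicate 1. Its log2 difference was 0.48 ± 0.19, or 1.39-fold, with an adjusted p of 0.999 in limma. Nqo1, the quinone reductase widely used as an NRF2 reporter, read 9.48, 9.10 and 8.90 in Sox2cKO and 9.32, 8.52 and 8.79 in CTRL. Each pair was higher in Sox2cKO, by 0.16, 0.58 and 0.11 (mean 0.28 ± 0.24), and the groups overlapped. Hmox1, the heme oxygenase, read 9.26, 8.13 and 7.85 in Sox2cKO, against 9.34, 6.72 and 6.92 in CTRL. The pairs differed by -0.08, 1.41 and 0.92, so replicates 2 and 3 were higher in Sox2cKO and replicate 1 was not, and the mean difference was 0.75 ± 0.71 (interval -0.91 to 2.42). Fth1, the ferritin heavy chain, differed by 0.01 ± 0.11, and the conjugate exporter Abcc1 by 0.03 ± 0.15. Their other tested probe sets differed by -0.01 for Fth1 and 0.43 for Abcc1.

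**Figure D2:**
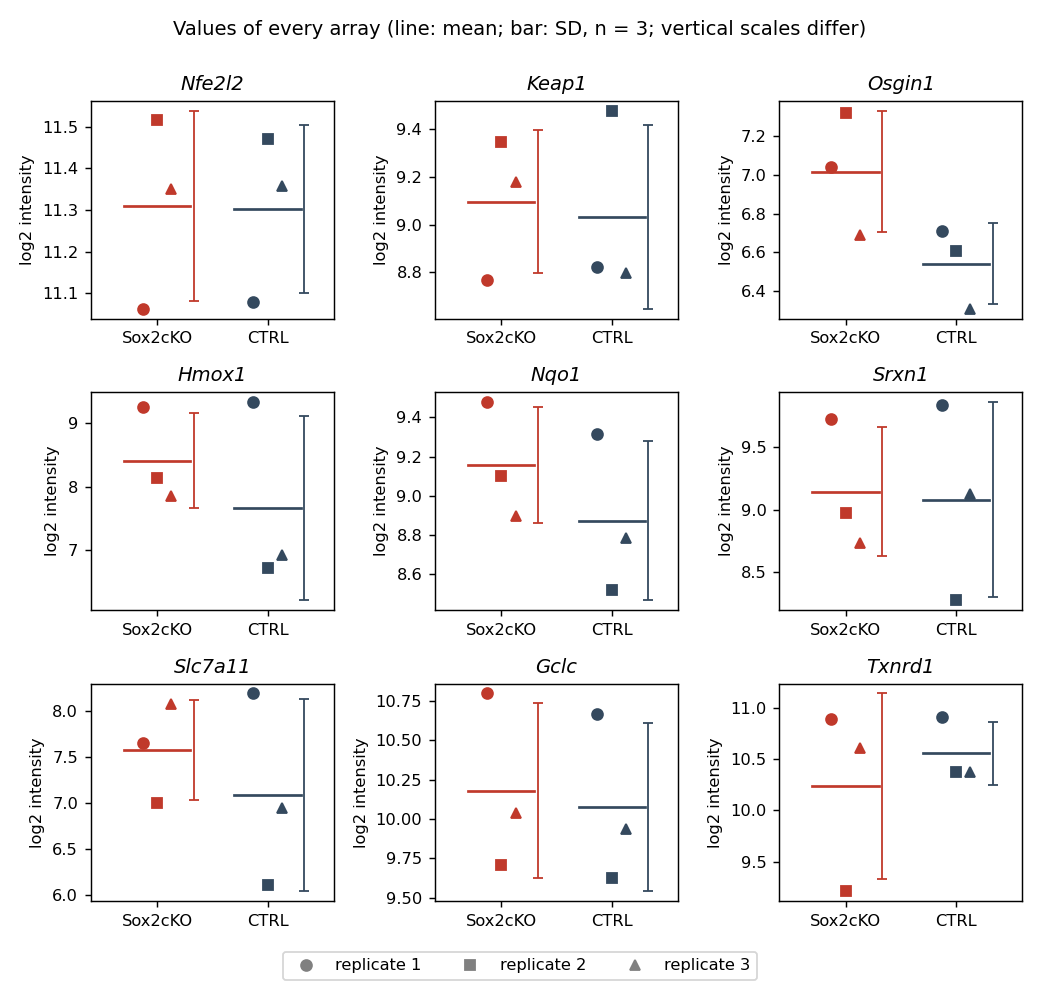
Log2 intensity of 9 genes in every array, Sox2cKO left of CTRL, with the mean as a line, the SD as a bar (n = 3) and the replicate number as the marker shape. Hmox1, Nqo1, Srxn1, Gclc and Txnrd1 are highest in replicate 1 of both groups, and Nfe2l2 is lowest there.

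The labels do not say what a replicate number marks, so pairing arrays by it is an assumption. With the replicate number as a block, the unadjusted limma p was under 0.05 for 2 of 37 genes (5.41%), against 4.96% of all genes. The 2 were Osgin1 (0.0125) and Hmox1 (0.0496), and 0 passed after adjustment (limma, 0.884 and 0.979). Among the 37 genes, most had groups apart when CTRL replicate 1 was left out. Over all genes the share was largest without Sox2cKO replicate 2 (20.1%). Without CTRL replicate 1 the groups were apart in 9 of 37 genes (24.3%), against 18% of all genes. In these 9 Sox2cKO was the higher group: Slc7a11, Gpx3, Gstm1, Gstp1, Pgd, Tkt, Nqo1, Hmox1 and Osgin1. No share over all genes is given for that direction. With a Sox2cKO array left out the groups were apart in 2 genes without replicate 1 (13.6% of all genes), 3 without replicate 2 (20.1%) and 6 without replicate 3 (16.9%), and with a control left out in 4 without replicate 2 (10.8%) and 4 without replicate 3 (13.2%). The log2 difference of Hmox1 was 1.59 without CTRL replicate 1 (limma adjusted p = 0.775), and over the 6 choices of a left-out array it lay between 0.28 and 1.59. The 2 controls that remain without CTRL replicate 1 are those with the female pattern, so sex pattern and group cannot be told apart there. A fit with sex pattern as a covariate sets Sox2cKO against CTRL replicate 1 alone. In it 22 of 37 genes were lower in Sox2cKO and 15 higher, with a median of -0.14. Over all genes 6963 of 13222 were lower in that fit, with a median of -0.01. Hmox1 differed by -0.92, Srxn1 by -0.69, Slc7a11 by -0.61 and Gclc by -0.49, each against that 1 control array.

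Spread between control arrays was wide for a few members. Whether each array is a separate tumour is not known. The median range over the 3 arrays was 0.41 in Sox2cKO and 0.40 in CTRL for the 37 genes, and 0.36 in Sox2cKO and 0.32 in CTRL for all genes. A range over 1, which is more than a doubling of intensity, was found in Sox2cKO for 9 of 37 genes, against 8.15% of all genes, and in CTRL for 5 of 37, against 4.49%. The 5 were Hmox1 (2.62), Slc7a11 (2.08), Srxn1 (1.57), Gclc (1.05) and Gsta3 (1.04). All 5 were highest in CTRL replicate 1 and lowest in CTRL replicate 2. CTRL replicate 1 is also the only control with the male pattern, so sex pattern and other traits of that array cannot be told apart. Without CTRL replicate 1, 0 of 37 had a range over 1, and without CTRL replicate 2, 2 did. Leaving out an array can only narrow a range, and these 2 arrays were the extremes of the 5 genes. The counts therefore single out neither array, and no share over all genes is given for them. Slc7a11 kept this order in its other probe set, which read 7.43, 7.01 and 7.41 in Sox2cKO and 7.84, 6.50 and 7.39 in CTRL. Of the 3 other probe sets of Srxn1, the ranges in CTRL were 0.20, 1.15 and 1.10, each with CTRL replicate 1 the highest. By its SD in CTRL, Hmox1 ranked at percentile 99.8 of all genes tested, Slc7a11 at 99.4 and Srxn1 at 98.6. Slc3a2, Fth1, Tkt and Sod2 were at the other end, with control ranges of 0.01, 0.07, 0.08 and 0.10 in the probe sets used. Other tested probe sets had wider control ranges: 0.19 for Fth1, 0.60 and 0.17 for Tkt, and 0.16, 0.88 and 0.71 for Sod2. Slc3a2 had only 1 probe set. In Sox2cKO the 9 wide genes were Slc7a11, Gclc, Gclm, Gpx3, Gsta3, Gstm2, Gstm5, Txnrd1 and Hmox1, led by Txnrd1 (1.69) and Gpx3 (1.62).

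**Figure D3:**
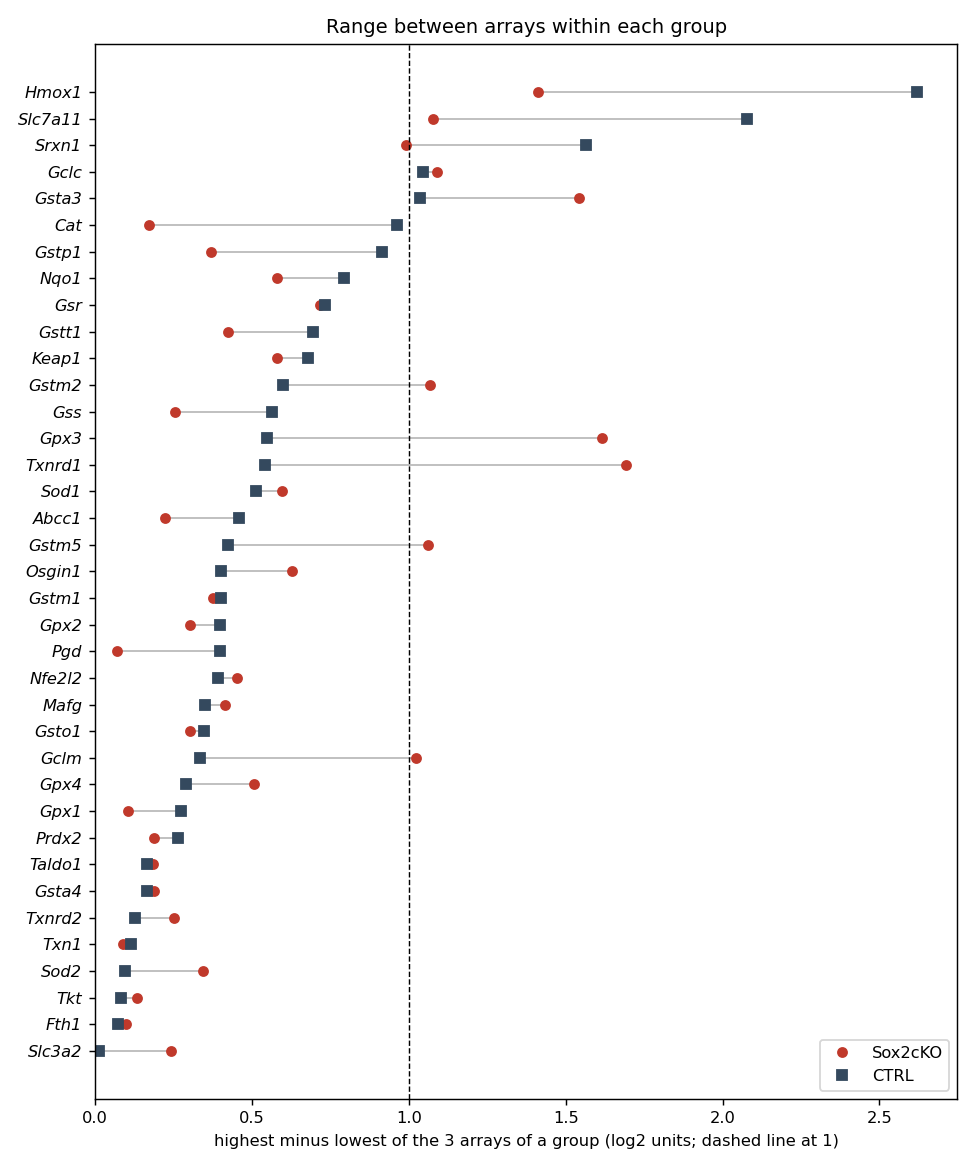
Range between the 3 arrays of each group, in log2 units, for the 37 measured genes in order of their range in CTRL; circles are Sox2cKO and squares CTRL, and the dashed line marks 1. The control range is wider than the Sox2cKO range for Hmox1, Slc7a11 and Srxn1, and the Sox2cKO range is the wider for Txnrd1, Gpx3 and Gclm.

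Replicate 1 stood high in both groups for several NRF2 targets. CTRL replicate 1 was the highest control in 20 of 37 genes (54.1%), against 33.1% of all genes, and the lowest in 5 of 37 (13.5%), against 28.4%. Replicate 1 was the highest array of both groups in 9 of 37 (24.3%), against 11.3% of all genes: Slc3a2, Gclc, Gstm2, Txnrd1, Srxn1, Pgd, Nqo1, Hmox1 and Abcc1. It was more than 0.5 above the mean of replicates 2 and 3 in both groups in 4 of 37 (10.8%), against 1.88%. Hmox1 was above that mean by 1.27 in Sox2cKO and 2.52 in CTRL, and Gclc by 0.93 in Sox2cKO and 0.89 in CTRL. Srxn1 was above it by 0.87 in Sox2cKO and 1.14 in CTRL. In Slc7a11 replicate 1 was above that mean by 0.11 in Sox2cKO, where replicate 3 was the highest array, and by 1.66 in CTRL. Not every member followed, since Nfe2l2 and Gclm were lowest in replicate 1 of both groups.

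**Figure D4:**
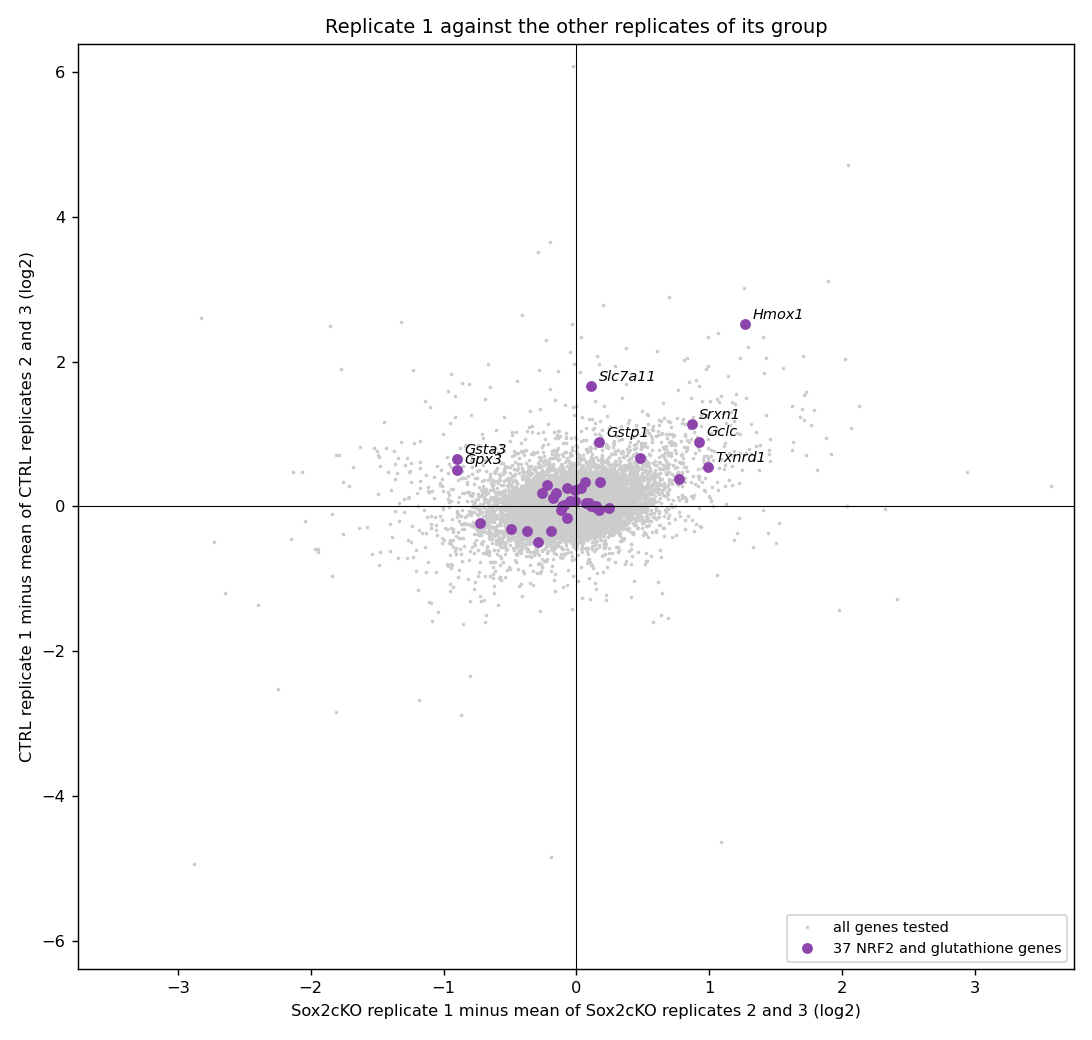
Replicate 1 minus the mean of replicates 2 and 3, in log2 units, within Sox2cKO (horizontal) and within CTRL (vertical), for the 37 genes (purple) and all 13222 genes tested (grey). Hmox1, Gclc and Srxn1 lie to the upper right, and Slc7a11 lies high within CTRL at 0.11 within Sox2cKO.

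Replicate number as a term in the fit gave an unadjusted p under 0.05 for 9 of 37 genes (24.3%), against 12.3% of all genes, and an adjusted p under 0.05 for 0 of 37, against 0% (limma moderated F). The F test has no direction. In both groups replicate 1 was above the mean of replicates 2 and 3 for Gclc, Gstm2, Srxn1, Nqo1 and Hmox1. It was below that mean in both groups for the rest of the 9, Nfe2l2, Keap1, Gsr and Sod1. Gclc had the smallest, 0.000828 before and 0.278 after adjustment, and Hmox1 had 0.00466 and 0.291. The labels do not say what a replicate number marks. In 6 of 6 tested suprabasal markers replicate 1 was the highest array of both groups, against 11.3% of all genes. Their summed level, as log2, was 15.21, 15.13 and 14.44 in Sox2cKO and 15.10, 14.37 and 14.58 in CTRL. The markers did not share 1 lowest array. Involucrin (Ivl) read 8.25, 8.18 and 8.04 in Sox2cKO and 8.29, 7.02 and 6.65 in CTRL, with CTRL replicates 2 and 3 the low arrays, whereas Krt10 read 13.70, 13.65 and 12.41 in Sox2cKO and 13.58, 12.44 and 13.06 in CTRL, with Sox2cKO replicate 3 the lowest. Krt1 was also lowest in Sox2cKO replicate 3, at 11.76. Basal markers summed to 15.21 to 15.32 in Sox2cKO and 15.23 to 15.29 in CTRL. The part of differentiation state or of sex pattern in the values of the NRF2 targets was not tested.

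Other genes of these pathways, outside the 42, showed no shared direction past the test. Over all genes, 2.68% had an unadjusted limma p under 0.05, and 4.96% did with the replicate block. The counts below stand beside these shares, and the lists are short. Of 12 tested partners and competitors of NRF2 and KEAP1, 6 had higher and 6 lower means in Sox2cKO (median 0.04). After adjustment 0 passed, and 1, Palb2, had an unadjusted p under 0.05. With the replicate block there were 2, Palb2 and Sqstm1, and 0 passed after adjustment. Palb2, whose protein can bind KEAP1, read 5.67, 6.17 and 6.18 in Sox2cKO and 6.22, 6.68 and 6.47 in CTRL (-0.45 ± 0.19), with all Sox2cKO arrays below all controls. Sqstm1, whose protein p62 binds KEAP1, read 11.51, 10.43 and 10.89 in Sox2cKO and 11.13, 9.91 and 10.17 in CTRL (0.54 ± 0.37), with replicate 1 again the highest of each group. Of 22 other NRF2 targets and detoxification genes, 8 were higher and 14 lower (median -0.04). Of 20 further transferases and peroxidases, 12 were higher and 8 lower (median 0.04). In each of these lists 0 genes had an unadjusted p under 0.05, and 1 did with the replicate block, Aldh3a1 in the first list and Mgst1 in the second. Slc48a1, a heme transporter, read 9.21, 8.99 and 9.22 in Sox2cKO and 8.96, 8.83 and 8.82 in CTRL (0.27 ± 0.12), with all Sox2cKO arrays above all controls. Aldh3a1, an aldehyde dehydrogenase, read 8.14, 8.38 and 6.93 in Sox2cKO and 9.20, 8.31 and 8.34 in CTRL (-0.80 ± 0.41), where the groups overlapped. Mgst1, a membrane transferase that is also on the sebocyte marker list, read 11.68, 11.98 and 11.34 in Sox2cKO and 11.99, 12.29 and 11.93 in CTRL (-0.40 ± 0.19). The sebocyte markers, 1 higher and 5 lower of 6 tested, summed as log2 to 12.59, 12.91 and 12.33 in Sox2cKO and 12.78, 13.33 and 12.92 in CTRL, and their part in the Mgst1 value was not tested. Of the sebocyte markers 0 of 6 had an unadjusted p under 0.05 (2.68% of all genes), and 4 did with the replicate block (4.96%). Of 14 other thioredoxin-fold genes 5 were higher and 9 lower, 0 with an unadjusted p under 0.05 and 2 with the replicate block, Glrx3 (-0.54 ± 0.25) and Msrb3 (-0.60 ± 0.29). The groups were apart in 2 of the 14, both lower in Sox2cKO. Over all genes they were apart in 5.85%, and apart with Sox2cKO lower in 3.12%. Prdx4, a peroxiredoxin of the endoplasmic reticulum, read 9.87, 9.55 and 9.79 in Sox2cKO and 9.87, 10.45 and 9.99 in CTRL, where the first arrays differed only beyond the decimals given, and Msrb3, a methionine sulfoxide reductase, read 5.35, 6.39 and 6.42 in Sox2cKO and 6.44, 6.70 and 6.83 in CTRL. Of 11 other NADPH sources 4 were higher and 7 lower, with 0 at an unadjusted p under 0.05 in either fit. Of 3 tested NADPH oxidase genes 2 were higher and 1 lower, the oxidase subunit gene Cyba at -0.77 ± 0.33, which had an unadjusted p under 0.05 only with the replicate block. After adjustment 0 genes of these lists passed in either fit.

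Glutathione breakdown and sulfur amino acid genes held 7 higher and 7 lower means of 14 tested (median 0.04). None passed the adjusted test, and 2 of 14 had an unadjusted p under 0.05, against 2.68% of all genes. Ggct, which splits gamma-glutamyl dipeptides in glutathione breakdown, read 11.11, 11.25 and 10.88 in Sox2cKO, against 10.81, 9.93 and 10.55 in CTRL (0.65 ± 0.23, adjusted p = 0.999 in limma). All Sox2cKO arrays were above all controls. Slc1a4, a neutral amino acid transporter, read 6.88, 6.74 and 7.07 in Sox2cKO, against 7.42, 7.40 and 7.54 in CTRL (-0.56 ± 0.13, adjusted p = 0.999 in limma). All its Sox2cKO arrays were below all controls.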

How the data were processed

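Tumour epithelial cells of 3 Sox2cKO and 3 CTRL samples were profiled on arrays. The deposited table holds 1 log2 value per probe set and array; no source used here names the scale, which was read from the range of the values, and the authors used R 2.14.0, per the submitters' processing notes. Background correction and normalization are not given in the sources used here. Array medians lay at 5.42 to 5.46, so a shift shared by most genes would not be seen, and low values flatten towards background.

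Probe sets were named by the platform annotation. A probe set was kept where at least 3 of 6 arrays exceeded their 40th percentile (4.90 to 4.94, over non-control probe sets), and each gene took the probe set with the highest mean. Sox2cKO minus CTRL was fitted by lmFit and eBayes of limma 3.58.1 (R 4.3.3, two-sided tests), adjusted by Benjamini-Hochberg over 13222 genes at 0.05. The procedure was tested on simulated data. Replicate numbers are in the labels, which do not say what they mark. Deviations from group means correlated at 0.288, 0.206 and 0.211 between same-numbered arrays, and at -0.333 to 0.0636 between arrays of different number. Deviations from a mean of 3 arrays sum to 0, so these correlations depend on each other and cannot settle a pairing. The numbers were treated as pairs by assumption, and a blocked fit is given where a count changes. Alternatives covered the filter, probe set choice, normalization, 16 added on the linear scale, sex pattern and each left-out array. The number of arrays limits the precision. The members and lists were chosen with earlier results of these data known, and all 42 are named. Values of every array are given for the 8 measured members of smallest unadjusted p, the 8 of widest CTRL range and 10 NRF2 regulators and targets; companion lists are named by up to 3 genes of smallest unadjusted p, with Sox2, Xist and Eif2s3y, and marker genes by range, plus Ivl, Lor, Krt10 and Krt1, chosen after their values were seen. Promoters are from RefSeq.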

Additional observations from a re-analysis of the deposited data

How the results depend on the processing

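Across 14 alternatives, 0 of the 37 genes passed the adjusted threshold, and the lowest adjusted p of any was 0.775 (limma, Hmox1 without CTRL replicate 1). The number at an unadjusted p under 0.05, 1 as reported, was 2 with the replicate block (5.41%, against 4.96% of all genes), 0 with the sex-pattern covariate (0.711% of all genes) and 0 to 4 when an array was left out (1.51% to 4.82% of all genes). The 4 without CTRL replicate 1 (10.8%, against 4.82%) were Slc7a11, Gstp1, Hmox1 and Osgin1. The number with groups apart, 1 as reported (2.7%, against 5.85% of all genes), was 2 after quantile normalization, for which no share over all genes is given. It was 2 to 9 when an array was left out (10.8% to 20.1% of all genes). The 9 were without CTRL replicate 1 (24.3%, against 18%). Fewer arrays make groups lie apart more often. The number with a CTRL range over 1, 5 as reported, was 0 to 5 when an array was left out. It was 0 without CTRL replicate 1 and 2 without CTRL replicate 2, and leaving out an array can only narrow a range. Over all genes, 0 passed as reported, 1 with the sex-pattern covariate and 0 to 5 when an array was left out, the 5 without CTRL replicate 1. The median log2 difference of the 37, 0.02, was -0.14 with the sex-pattern covariate, which leaves CTRL replicate 1 as the only control. Over all genes the median in that fit was -0.01. Of the 37 differences, 29 changed sign under at least 1 alternative and 8 under none, and 13 of 517 values moved by more than 1 SD. Of 37 other tested probe sets of these genes, 12 had the opposite sign to the one used. In this balanced design the replicate block leaves each difference as it is and alters the p-values alone; after adjustment it brought 0 of the 37 past the threshold. What made these counts move was not tested beyond the number of arrays. With 3 arrays a group and a female pattern in 2 of the 3 controls, the 95% intervals of 36 of the 37 differences include 0.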
